A study of Homo sapiens with 36 samples.

Results

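The genes described here encode the cytosolic translation initiation factors EIF1 to EIF6 and the elongation factors EEF1 and EEF2, with the kinases, binding proteins and methyltransferases that share those names. They are the protein-coding genes of the deposited expression table whose symbol begins with EIF1 to EIF6, EEF1 or EEF2, 71 of 14984 listed protein-coding genes, and no measured value entered that choice. Of these, 70 had a mean of at least 1 CPM (a read count scaled to library size, as deposited) and were tested. The one that did not was EIF4E1B, a relative of the cap-binding protein EIF4E, at a mean of 0.658 CPM.

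Translation of a capped mRNA starts when the eIF4F complex (the cap-binding EIF4E, the scaffold EIF4G and the helicase EIF4A) recruits a small ribosomal subunit that carries eIF3, eIF2 with the initiator tRNA, EIF1, EIF1A and EIF5. The 4E-binding proteins block EIF4E until mTOR phosphorylates them, and the eIF2 kinases slow initiation under stress through the exchange factor eIF2B. EEF1A then delivers aminoacyl-tRNAs, EEF1B recharges EEF1A with GTP, EEF2 moves the ribosome on, and EEF2K restrains EEF2. Many of these mRNAs begin with a C and a run of pyrimidines (a terminal oligopyrimidine, or TOP, start), through which mTOR controls their translation, and N6-methyladenosine (m6A) is an mRNA mark that ALKBH5 removes.

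The study used UM-SCC-1, an established human head and neck squamous carcinoma line. The cells carried a retroviral shRNA against ALKBH5 (shRNA-1 or shRNA-2) or against RBM33, an RNA-binding protein (shRNA-1 or shRNA-2), or 1 of 2 scramble controls, one made with each target's set, and all were kept in blasticidin at 10 ug/mL for 4 days. The series has 36 samples, 18 for RNA-seq and 18 for m6A-seq, in 12 groups of 3. RNA values of 15 libraries were used: 3 of ALKBH5 scramble, 2 of ALKBH5 shRNA-1, 2 of ALKBH5 shRNA-2, 3 of RBM33 scramble, 2 of RBM33 shRNA-1 and 3 of RBM33 shRNA-2. The other 3 RNA libraries were not analysed here. Whether replicates came from separate cultures is not stated in the labels, and p-values therefore reflect only the variation among these libraries, which may be technical.

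The libraries held 4493849 to 6733017 reads. The ALKBH5 transcript checked the ALKBH5 labels: it was at 108.8, 131.7 and 123.3 CPM with scramble, at 84.72 and 84.77 with shRNA-1 and at 75.08 and 89.59 with shRNA-2, a log2 difference of -0.53 (limma adjusted p = 9.11e-05). The RBM33 transcript was not called reduced (log2 difference -0.10, limma adjusted p = 0.272), so these groups are named below as the libraries labelled RBM33 shRNA. Of 10 squamous epithelial markers 4 had a row, and SFN, DSG3, DSC3 and ITGB4 are those; KRT5, KRT14 and TP63 had none that was used here. Each target has its own scramble, and library set and target cannot be told apart wherever the sets are compared.

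The start sites of 8 genes are printed because the TOP start is the sequence by which these genes are grouped below. Each line gives 50 bases before and 20 from the annotated start on the gene's strand (RefSeq, GRCh38.p14), with capitals for a pyrimidine run at the start and for TATAA between 40 and 15 bases before it.
EEF1A1 (chr6:73521013-73521082, minus): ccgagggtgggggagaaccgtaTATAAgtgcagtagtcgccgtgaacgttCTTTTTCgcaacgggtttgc
EEF2 (chr19:3985444-3985513, minus): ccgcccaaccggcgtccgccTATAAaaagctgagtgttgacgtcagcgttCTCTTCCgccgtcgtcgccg
EEF1B2 (chr2:206159845-206159914, plus): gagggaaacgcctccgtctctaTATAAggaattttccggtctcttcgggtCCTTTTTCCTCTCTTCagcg
EIF4B (chr12:53006406-53006475, plus): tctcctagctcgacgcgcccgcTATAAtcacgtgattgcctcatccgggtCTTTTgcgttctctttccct
EIF3F (chr11:7987287-7987356, plus): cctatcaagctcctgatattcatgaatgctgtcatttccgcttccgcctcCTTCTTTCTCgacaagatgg
EEF1G (chr11:62573872-62573941, minus): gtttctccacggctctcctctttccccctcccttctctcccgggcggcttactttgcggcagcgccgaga
EIF4A1 (chr17:7572775-7572844, plus): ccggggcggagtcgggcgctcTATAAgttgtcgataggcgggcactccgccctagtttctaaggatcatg
EIF4G1 (chr3:184314556-184314625, plus): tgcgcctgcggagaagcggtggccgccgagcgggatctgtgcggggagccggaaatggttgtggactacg

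The first 5 begin with the run and the last 3 do not, at the starts this annotation gives. Of 56 members with a RefSeq promoter entry, 13 (23.2%) had an annotated start with a C and at least 5 pyrimidines in a row counting that C, against 5.14% of all 27305 genes. TATAA stood in that interval in 7 members (12.5%) and in 4.94% of all genes. A list of 10 classical TOP genes falls among the members (EEF1A1, EEF1B2, EEF1D, EEF1G, EEF2, EIF3A, EIF3E, EIF3F, EIF3H and EIF4B), and 5 of the 6 with an entry started with the run. A match of letters is a description, and an annotated start need not be the one used in these cells.

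Per kilobase of annotated exon, EEF2, the translocation factor, had the highest mean level of the members at 709.7 CPM per kb. EEF1G, a subunit of the EEF1B exchange complex, followed at 290.2, EEF1B2 at 259.1, EIF4EBP1 at 257.3 and EEF1A1 at 244.3 CPM per kb. EIF4E itself stood at 5.04 and EIF4G1 at 95.8 CPM per kb. The helicase gene EIF4A1 was listed at 174.2 CPM per kb, but most of its reads equal those of small RNAs inside it, and the group means of the remainder after their subtraction were 33.3 to 57.2 CPM per kb. On that scale the scaffold thus stood above the helicase remainder, and both above the cap-binding subunit. The scale divides by all annotated exon bases of a gene, not by the length of the transcript used. These were 14067 bases for EIF4E, 10063 for EEF1A1 and 880 for EIF4EBP1. Before that division EEF1A1 stood at 2458 CPM and EIF4EBP1 at 226.4 CPM. EIF5A2, the tissue-restricted paralogue of EIF5A, stood at 0.896 CPM per kb against 177.8 for EIF5A.

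In the ALKBH5 shRNA libraries 14 of 70 members were higher and 4 lower than in the ALKBH5 scramble libraries (limma, adjusted p under 0.05), where 7.93% of all tested genes were called higher and 7.18% lower, 15.1% in all. Their median log2 difference was 0.063, against 0.005 over all tested genes. In the libraries labelled RBM33 shRNA 10 members were higher and 15 lower than in their scramble, where 8.5% and 9.25% of all tested genes were called, 17.7% in all. The members' median there was -0.025, against -0.012 over all tested genes. Without RBM33 scramble replicate 1 that count of 25 was 14, and without RBM33 scramble replicate 2 it was 15. Members were more abundant than most genes (median 117.1 CPM, against 24.46 for tested protein-coding genes), and the part of abundance in these counts was not tested.

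**Figure D1:**
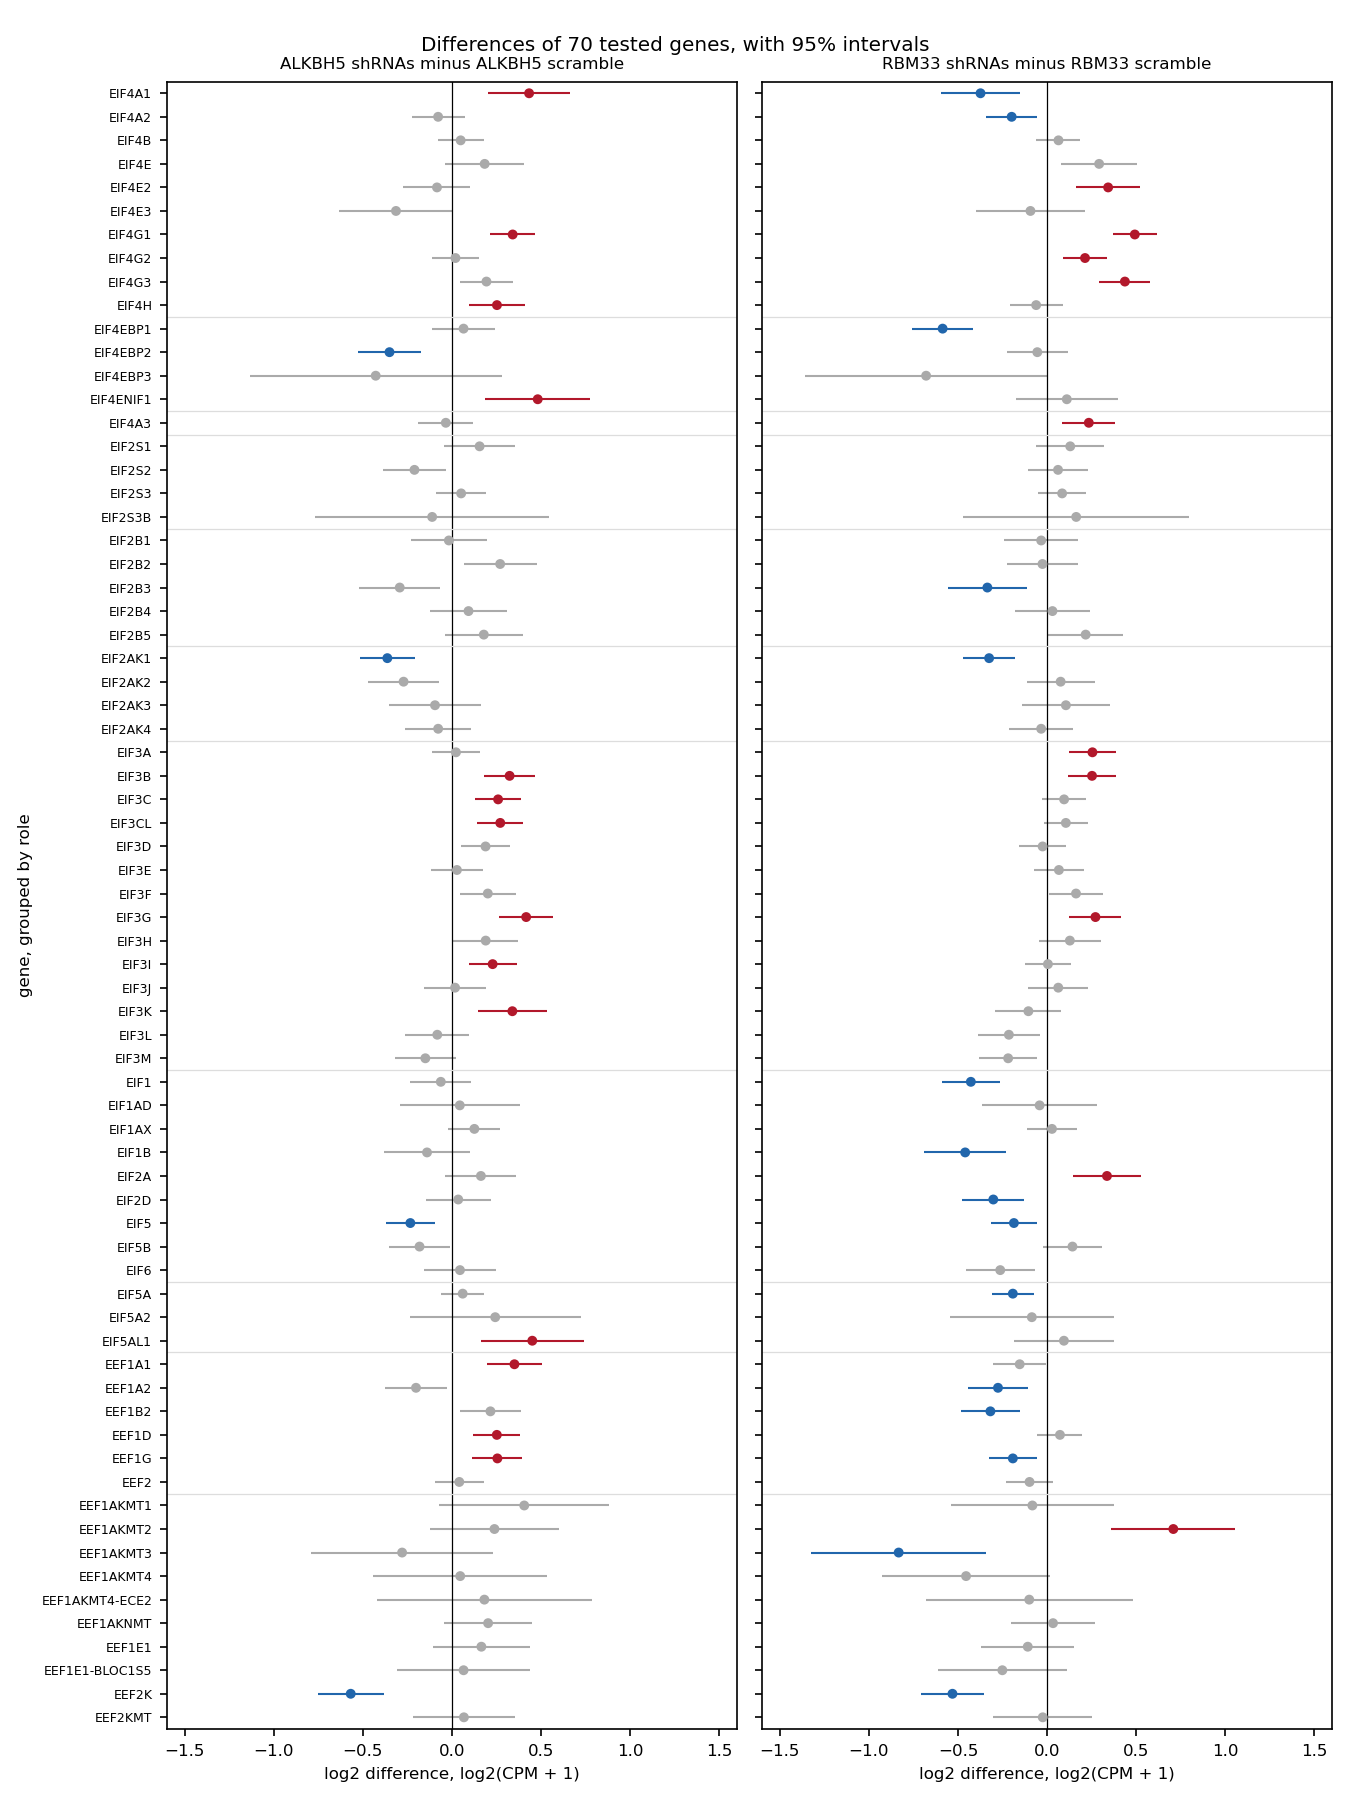
Log2 difference of each of the 70 tested members, grouped by role, for the ALKBH5 and the RBM33 set of libraries; each point is the difference of log2(CPM + 1) between the mean of both shRNA groups and the scramble, bars are 95% confidence intervals, and red, blue and grey mark genes called higher, lower or not called. EIF4G1, EIF3G and EIF3B lie to the right and EEF2K, EIF2AK1 and EIF5 to the left in both panels, and EIF4A1 is shown as deposited.

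The scaffold EIF4G1 (ENSG00000114867, chr3:184314495-184335358) was higher in both sets. The ALKBH5 scramble libraries held 682.4, 717.5 and 699 CPM, against 927 and 883 in ALKBH5 shRNA-1 and at 840.2 and 897.9 in ALKBH5 shRNA-2. The RBM33 scramble libraries held 702.6, 670 and 703.7 CPM, those labelled RBM33 shRNA-1 942.9 and 1041, and those labelled RBM33 shRNA-2 954.9, 937.4 and 981.5. No shRNA library overlapped a scramble library in either set, and both scrambles stood at the same level. The log2 difference was 0.34 ± 0.06 (SE, limma adjusted p = 0.000559) for ALKBH5 and 0.49 ± 0.06 (adjusted p = 2.9e-06) for RBM33.

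Among the other eIF4F genes the ALKBH5 effect minus the RBM33 effect was called for none but EIF4A1 as deposited, so a call in 1 set is no difference between the sets. EIF4G3, a second scaffold, was 0.44 higher on the log2 scale in the RBM33 set's shRNA-labelled libraries (limma adjusted p = 8.77e-05), at 223.7 to 264.5 CPM against 171.9 to 194.6. EIF4E2, a cap-binding relative that represses translation, was 0.34 higher there (adjusted p = 0.00814), and EIF4G2, a scaffold that lacks the EIF4E site, 0.21 higher (adjusted p = 0.0173). EIF4E itself was not called in either set (0.18, adjusted p = 0.274, and 0.29, adjusted p = 0.0524). EIF4H, a helper of the helicase, was 0.25 higher with the ALKBH5 shRNAs (adjusted p = 0.0247). Without RBM33 scramble replicate 1 or 2 the EIF4G2 difference was 0.20 or 0.21 (adjusted p = 0.0789 and 0.0701). With the gene length trend removed it was 0.17 (adjusted p = 0.0553). The EIF4H call was lost without any of 5 libraries of its set (adjusted p between 0.0512 and 0.0818) and under quantile normalization (0.23, adjusted p = 0.0622).

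The helicase gene EIF4A1 (ENSG00000161960, chr17:7572824-7579006) needs its counting described first. It holds 3 small nucleolar RNAs, SNORA48, SNORD10 and SNORA67, whose listed reads equal 61.7 to 84.2% of its reads, so as deposited most of its value comes from that overlap if every such read was also counted for the host gene. As deposited it was at 645.1, 559.5 and 617.4 CPM in ALKBH5 scramble, 744.3 and 814.3 in ALKBH5 shRNA-1 and 1095 and 678.6 in ALKBH5 shRNA-2. The RBM33 scramble held 1118, 1273 and 1301 CPM, the libraries labelled RBM33 shRNA-1 853.3 and 1095, and those labelled RBM33 shRNA-2 911, 967.5 and 910. The deposited values were thus called higher with ALKBH5 shRNAs (0.43, limma adjusted p = 0.00971) and lower with those labelled RBM33 shRNA (-0.37, adjusted p = 0.0174).

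After the reads of the 3 small RNAs were subtracted, a step chosen after the data were seen, EIF4A1 was higher in both sets. The remainder was 173.1, 174.1 and 171.5 CPM in ALKBH5 scramble, 280.5 and 278.9 in shRNA-1 and 308.5 and 259.7 in shRNA-2. It was 194.5, 201 and 208.3 CPM in RBM33 scramble, 290.5 and 304.1 in those labelled RBM33 shRNA-1 and 302.3, 276.9 and 292.5 in those labelled shRNA-2. No shRNA library overlapped a scramble in either set, and the SD was 0.412 to 12.2% of the group mean, against 3.54 to 33.2% for the deposited values. It was smaller in 5 of the 6 groups, the exception being RBM33 shRNA-2 (4.41% against 3.54%). The log2 difference was 0.70 ± 0.07 (SE, limma adjusted p = 1.84e-07) for ALKBH5 and 0.54 ± 0.07 (adjusted p = 2.51e-06) for RBM33, the opposite of the deposited sign. SENP3-EIF4A1, a read-through gene that shares EIF4A1 exons, gave 0.65 (adjusted p = 3.36e-07) and 0.47 (adjusted p = 1.41e-05). At 185.4, 185.2 and 183.8 CPM in ALKBH5 scramble, it lay close to the remainder. Both may hold the same reads, so SENP3-EIF4A1 is no separate support for the subtraction. SNORD10 itself gave 0.32 (adjusted p = 0.138) and -0.68 (adjusted p = 0.00106). The subtraction supposes that each small-RNA read was counted for both genes, which was not tested. The ALKBH5 call on the deposited value was lost without ALKBH5 scramble replicate 2 (0.38, adjusted p = 0.0552) or ALKBH5 shRNA-2 replicate 1 (0.26, adjusted p = 0.0618). The RBM33 call was lost without RBM33 scramble replicate 2 (-0.35, adjusted p = 0.0796), scramble replicate 3 (-0.33, adjusted p = 0.0833) or shRNA-1 replicate 1 (-0.28, adjusted p = 0.103), with DESeq2 (-0.36, adjusted p = 0.0675) and under quantile normalization (-0.24, adjusted p = 0.11).

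**Figure D2:**
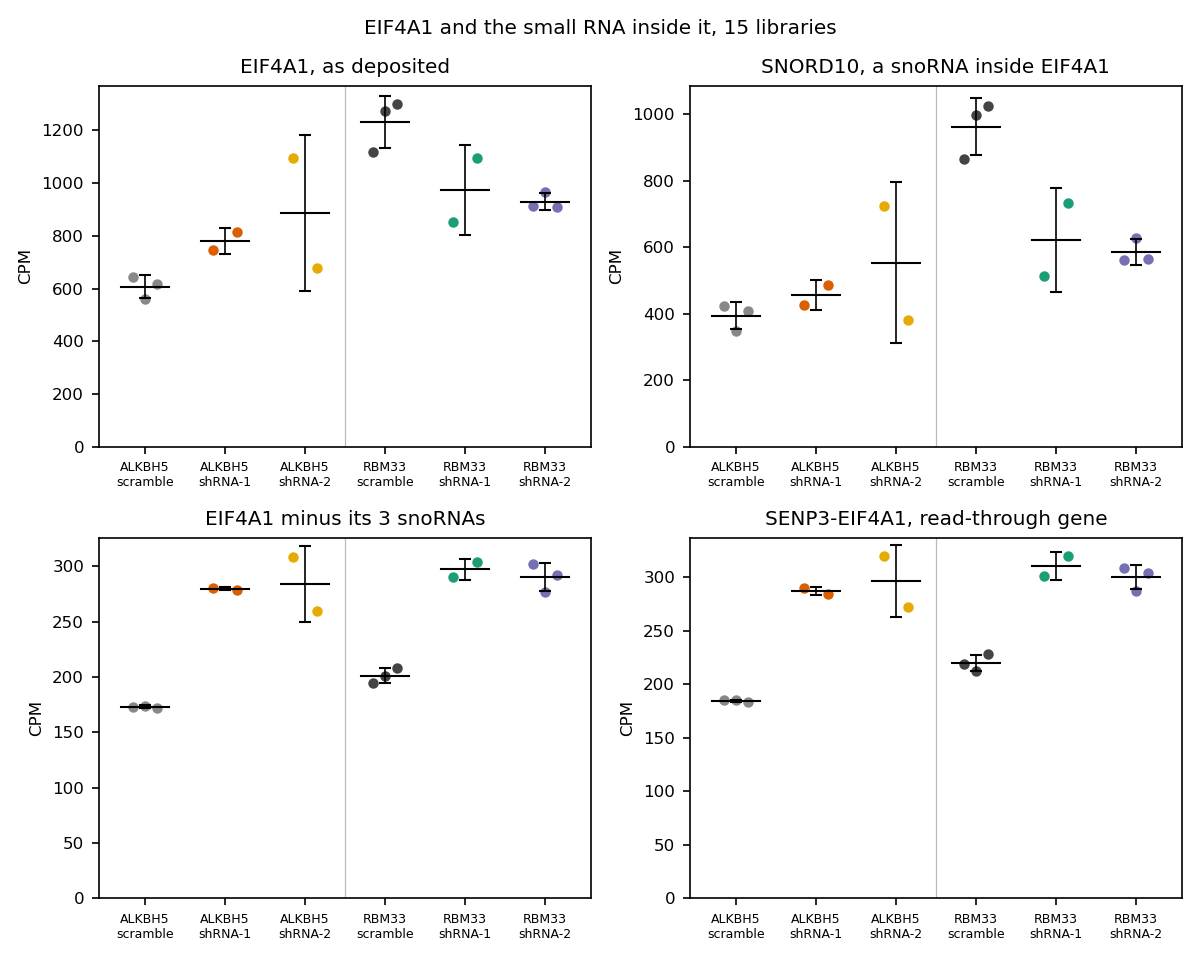
CPM by library for EIF4A1 as deposited, for SNORD10 within it, for EIF4A1 less its 3 small nucleolar RNAs, and for the read-through gene SENP3-EIF4A1; points are libraries, lines are group means and error bars are SD. In the subtracted and read-through panels every shRNA library lies above its own scramble, and in the deposited panel the RBM33 scramble libraries, at 1118 to 1301 CPM, lie above the libraries labelled RBM33 shRNA. The subtracted and read-through panels may hold the same reads.

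EIF4A2, the helicase paralogue, holds 5 small RNAs that equal 15.8 to 28.4% of its reads. Its deposited call in the RBM33 set (-0.20, limma adjusted p = 0.0499) was not made after they were subtracted (-0.13, adjusted p = 0.211). EIF4A3, the paralogue that marks exon junctions, was 0.23 higher in the libraries labelled RBM33 shRNA (adjusted p = 0.0256), at 136.7 to 149.7 CPM against 118.4 to 124.0. Without RBM33 scramble replicate 1, 2 or 3 or RBM33 shRNA-1 replicate 2 the EIF4A3 call was lost (0.21 to 0.25, adjusted p between 0.0568 and 0.108). The EIF4A2 call was lost in 19 of 27 other settings, with adjusted p up to 0.252 (without RBM33 scramble replicate 3). These included edgeR's quasi-likelihood test (adjusted p = 0.055), a pseudocount of 0.5 CPM (adjusted p = 0.0503), no filter (adjusted p = 0.0583), quantile normalization (adjusted p = 0.0643), the replicate block (adjusted p = 0.0605) and leaving out libraries of either set.

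Of the 14 eIF3 subunit genes, which form the largest initiation factor, 6 were higher and none lower with the ALKBH5 shRNAs. Of all tested genes 7.93% were called higher and 7.18% lower there. In the libraries labelled RBM33 shRNA 3 subunit genes were higher and none lower, where 8.5% and 9.25% of all tested genes were. EIF3G was at 100.4, 112.5 and 104.6 CPM in ALKBH5 scramble, at 151.8 and 139.5 in shRNA-1 and at 143.1 and 132.4 in shRNA-2. In the other set it was at 116.1, 128.9 and 132.9 CPM in scramble, 155.9 and 155.3 in the libraries labelled shRNA-1 and 145.5, 145.3 and 154.8 in those labelled shRNA-2. Neither set's groups overlapped. The log2 difference of EIF3G was 0.42 ± 0.07 (SE, limma adjusted p = 0.000424) and 0.27 ± 0.07 (adjusted p = 0.00913). EIF3B, the subunit that scaffolds the complex, rose by 0.32 (adjusted p = 0.00224) and 0.25 (adjusted p = 0.00969). EIF3A, the largest subunit, was called only in the RBM33 set (0.25, adjusted p = 0.00651), and the difference between the sets was not called. EIF3K (0.34), EIF3C (0.26), EIF3CL (0.27) and EIF3I (0.23) were called only with the ALKBH5 shRNAs. EIF3C and EIF3CL are near-identical copies whose reads cannot be told apart, so both calls in the count of 6 may come from the same reads. None of the 14 was called for a difference between the sets' effects. The median of the subunits was 0.196 and 0.081. The EIF3G and EIF3B calls in the RBM33 set were lost without RBM33 scramble replicate 1 (0.21, adjusted p = 0.087) and replicate 2 (0.23, adjusted p = 0.0625). The EIF3K call was lost without ALKBH5 scramble replicate 1 (0.26, adjusted p = 0.118) or ALKBH5 shRNA-2 replicate 1 (0.26, adjusted p = 0.0861), and the EIF3I call without any of 4 libraries of that set (adjusted p between 0.0732 and 0.0758).

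Of the 4 genes that regulate EIF4E, 1 was higher and 1 lower with the ALKBH5 shRNAs and 1 was lower in the RBM33 set. Of all tested genes 7.93% were called higher and 7.18% lower in the ALKBH5 set, and 9.25% lower in the RBM33 set. EIF4EBP1, the mTOR-controlled inhibitor of EIF4E (chr8:38030534-38060365), was at 286.6, 268.1 and 283.8 CPM in RBM33 scramble, 204.9 and 179 in the libraries labelled RBM33 shRNA-1, and 198.3, 156.2 and 188.8 in those labelled RBM33 shRNA-2. All 5 of those libraries were below the scramble, a log2 difference of -0.59 ± 0.08 (SE, limma adjusted p = 2.39e-05). In the ALKBH5 set it was at 202.5 to 258.3 CPM in scramble and 220.6 to 244.5 with the shRNAs, and was not called. EIF4EBP2, its paralogue, was 0.35 lower there (adjusted p = 0.00688), at 124.8 to 138.4 CPM against 91.32 to 111.2. EIF4ENIF1, the EIF4E transporter, was 0.48 higher with ALKBH5 shRNAs (adjusted p = 0.0249), though its libraries overlapped and the call was lost without 5 single libraries of that set (adjusted p between 0.0507 and 0.138).

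No eIF2 subunit gene of 4 was called in either set, and no eIF2B subunit gene of 5 was called with the ALKBH5 shRNAs. In the ALKBH5 set 15.1% of all tested genes were called, and in the RBM33 set 17.7%. The lack of calls among so few genes thus does not set them apart. EIF2S1, the subunit that the kinases phosphorylate, lay between 75.22 and 107.7 CPM over the 15 libraries (0.16, limma adjusted p = 0.306, and 0.13, adjusted p = 0.362). EIF2S3, the subunit that binds the initiator tRNA, gave 0.05 and 0.08 (adjusted p = 0.667 and 0.401). EIF2B3, the gamma subunit of the exchange factor, was 0.34 lower in the RBM33 set's shRNA-labelled libraries (limma adjusted p = 0.0312), with overlapping libraries. Without RBM33 scramble replicate 1 or 3, RBM33 shRNA-1 replicate 2 or RBM33 shRNA-2 replicate 3, EIF2B3 was not called (adjusted p between 0.0677 and 0.164), nor was it with the gene length trend removed (-0.28, adjusted p = 0.0795). Of the 4 eIF2 kinases only EIF2AK1, the haem-regulated kinase, was called, and it was lower in both sets. The ALKBH5 scramble libraries held 140.8, 131.5 and 137 CPM, against 111 and 111.7 in shRNA-1 and 100.9 and 100.6 in shRNA-2. The RBM33 scramble held 135.8, 123.9 and 138.7 CPM and the 5 libraries labelled RBM33 shRNA 96.86 to 115.7. No library overlapped, and the differences were -0.36 (adjusted p = 0.00162) and -0.33 (adjusted p = 0.00234).

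Among the start-site and joining factors EIF5, the GTPase activator of eIF2, was lower in both sets (-0.23, limma adjusted p = 0.0183, and -0.19, adjusted p = 0.0438). EIF1, which keeps scanning ribosomes accurate, fell from 360, 384.6 and 390.8 CPM to 252.2 and 303.9 and to 282, 273.9 and 299.6 in the libraries labelled RBM33 shRNA (-0.43, adjusted p = 0.000506). Its paralogue EIF1B was 0.46 lower there (adjusted p = 0.00573). With the ALKBH5 shRNAs neither was called. EIF2D, which can deliver initiator tRNA, was 0.30 lower in the RBM33 set (adjusted p = 0.0153) and EIF2A, an alternative tRNA carrier, 0.34 higher (adjusted p = 0.0138). The EIF2A call was lost without RBM33 scramble replicate 2 (0.28, adjusted p = 0.0961). EIF5 was not called with the ALKBH5 shRNAs when replicate 1 or 2 of the scramble, or replicate 1 of shRNA-1 or of shRNA-2, was left out (adjusted p between 0.0532 and 0.0976) or the gene length trend was removed (-0.19, adjusted p = 0.0528). The EIF5 call in the RBM33 set was lost in 10 of 27 other settings. They include quantile normalization (-0.10, adjusted p = 0.291), the replicate block (adjusted p = 0.0747) and leaving out any of the 3 RBM33 scramble libraries (adjusted p = 0.0744, 0.083 and 0.208). EIF2D was not called without RBM33 scramble replicate 1 or 3 or shRNA-1 replicate 1 (adjusted p between 0.0532 and 0.0916).

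EEF2K, the kinase that inhibits EEF2 (chr16:22206278-22288738), was lower in both sets. The ALKBH5 scramble libraries held 85.33, 100 and 97.65 CPM, against 66.37 and 70.73 in shRNA-1 and at 57.12 and 59.34 in shRNA-2. The RBM33 scramble held 90.68, 85.07 and 83.81 CPM, the libraries labelled RBM33 shRNA-1 57.38 and 72.6, and those labelled shRNA-2 52.98, 57.46 and 54.32. All 9 shRNA libraries were below all 6 scramble libraries. The log2 difference was -0.57 ± 0.09 (SE, limma adjusted p = 0.000136) and -0.53 ± 0.09 (adjusted p = 0.000117). EEF2 itself was not called in either set (0.04, adjusted p = 0.737, and -0.10, adjusted p = 0.309); quantile normalization turned both signs, to -0.18 and 0.07.

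Of 6 elongation factor genes 3 were higher with the ALKBH5 shRNAs, where 7.93% of all tested genes were. In the libraries labelled RBM33 shRNA 3 were lower, where 9.25% of all tested genes were. The ALKBH5 scramble was below the RBM33 scramble for 3 of the 6 genes, as it was for 2.21% of all tested genes. EEF1A1, the tRNA carrier, was at 2086, 2110 and 1868 CPM in ALKBH5 scramble, 2671 and 2599 in shRNA-1 and 2710 and 2337 in shRNA-2. It was at 2754, 2661 and 2802 CPM in RBM33 scramble, 2468 and 2565 in the libraries labelled RBM33 shRNA-1 and 2526, 2218 and 2496 in those labelled shRNA-2. The shRNA libraries of both sets lay at a similar level, while the ALKBH5 scramble lay below the RBM33 scramble. EEF1A1 was 0.35 higher with the ALKBH5 shRNAs (limma adjusted p = 0.00217) and was not called in the RBM33 set (-0.15, adjusted p = 0.144). EEF1G was 0.26 higher (adjusted p = 0.0126) and 0.19 lower (adjusted p = 0.0438). EEF1B2, the exchange subunit, was called only in the RBM33 set (-0.32, adjusted p = 0.00701), and EEF1D, another exchange subunit named after its values were seen, was 0.25 higher with the ALKBH5 shRNAs. EEF1G shares its reads with AP002990.1, a read-through gene listed at near-equal CPM. Quantile normalization ended the EEF1A1 call in the ALKBH5 set (0.17, adjusted p = 0.108). The EEF1G call with ALKBH5 shRNAs was lost without ALKBH5 scramble replicate 3 (adjusted p = 0.0724) or shRNA-1 replicate 1 (adjusted p = 0.0511), and the EEF1B2 call without RBM33 shRNA-1 replicate 1 (-0.25, adjusted p = 0.0514). The EEF1G call in the RBM33 set was lost in 10 of 27 other settings. Among them were quantile normalization (-0.10, adjusted p = 0.282), the length trend removed (-0.14, adjusted p = 0.142), the replicate block (adjusted p = 0.0677) and leaving out any of the 3 RBM33 scramble libraries (adjusted p = 0.169, 0.0845 and 0.0971).

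The enzymes that modify elongation factors gave the largest differences of any member in the RBM33 set, at low levels. EEF1AKMT2, a lysine methyltransferase of EEF1A, was at 14.55, 17.47 and 8.858 CPM in RBM33 scramble and at 20.32 to 26.31 CPM in the 5 carrying an RBM33 shRNA label (0.71 ± 0.17, SE, limma adjusted p = 0.00459). EEF1AKMT3, another such enzyme, was at 8.405, 6.792 and 6.303 CPM in scramble and at 2.638 to 4.299 in those 5 libraries (-0.83 ± 0.24, adjusted p = 0.0174). Groups did not overlap for either, but each call was lost without one scramble library: EEF1AKMT2 without replicate 3 (0.45, adjusted p = 0.0671) and EEF1AKMT3 without replicate 1 (-0.73, adjusted p = 0.0967). Both overlap other protein-coding genes, with which reads may be shared.

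EIF5A, the hypusine-bearing factor that helps ribosomes over difficult peptide bonds, was at 520.8 to 548.2 CPM in RBM33 scramble and 446.7 to 484.5 in those labelled RBM33 shRNA (-0.19, limma adjusted p = 0.0218). That call was lost without RBM33 scramble replicate 1 or 2 or shRNA-1 replicate 1 (adjusted p = 0.0712, 0.103 and 0.0886), under quantile normalization (-0.10, adjusted p = 0.258) and with the gene length trend removed (-0.14, adjusted p = 0.11). EIF5AL1, a near copy of EIF5A whose reads are hard to assign, was 0.45 higher with the ALKBH5 shRNAs (adjusted p = 0.0314), a call lost without any of 4 libraries of that set (adjusted p between 0.0592 and 0.152). EEF1A2, the paralogue of EEF1A1, was 0.28 lower in the RBM33 set (adjusted p = 0.0193) and not called without RBM33 scramble replicate 1 or 2 or shRNA-1 replicate 1 (adjusted p = 0.0659, 0.0715 and 0.0764). Of the 70 tested members, 35 were called in at least 1 set, 8 in both, 6 of these in the same direction, and 35 in neither. Such joint counts were not made for all tested genes, so they are not shown to be particular to the members. The 35 uncalled members ranged from -0.43 to 0.41 in the ALKBH5 set and from -0.68 to 0.29 in the RBM33 set.

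**Figure D3:**
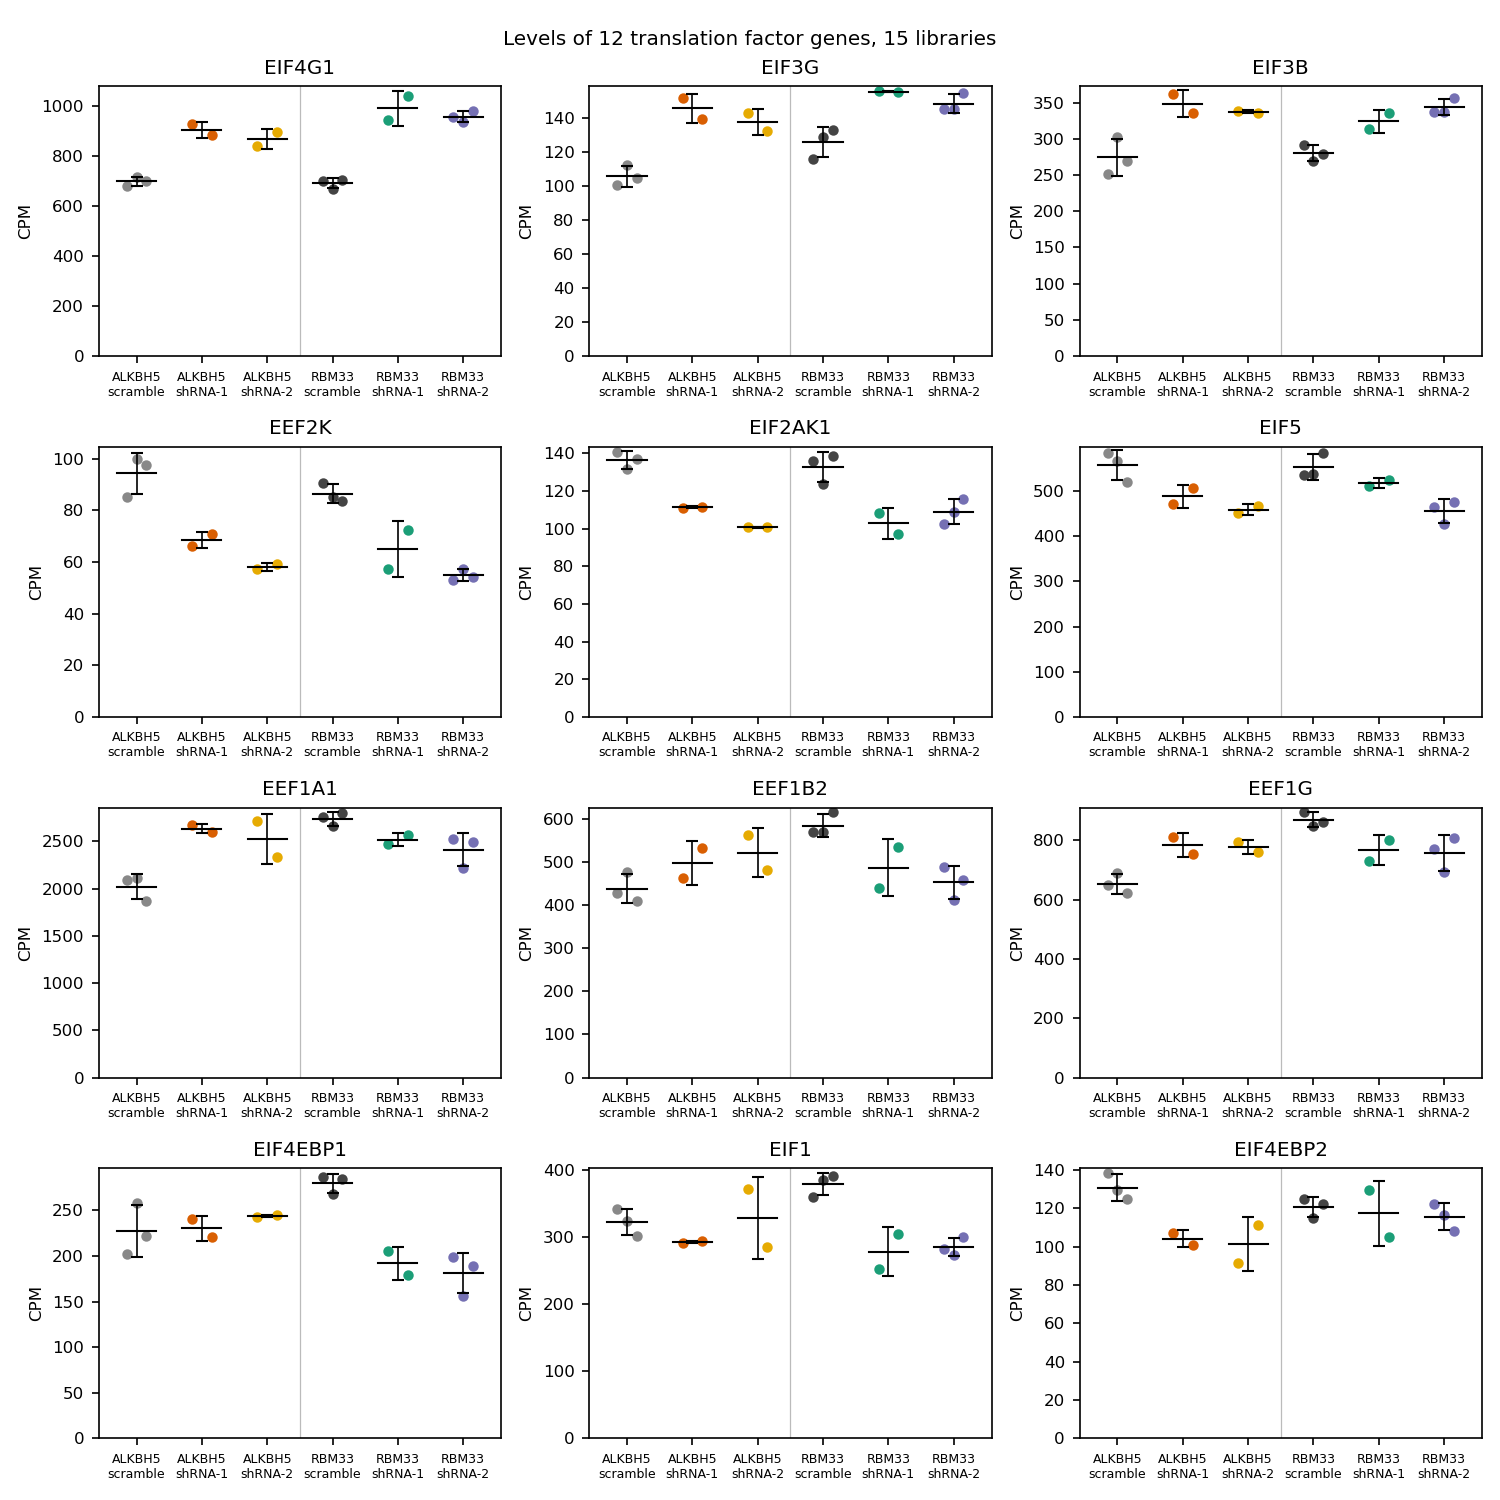
CPM by library of 12 members in the 6 groups; points are libraries, horizontal lines are group means, error bars are SD over libraries of the group, and the grey line parts the ALKBH5 from the RBM33 set. EIF4G1 is higher and EEF2K lower than their scramble in every shRNA library of both sets, while for EEF1A1 the scrambles differ, at 1868 to 2110 and 2661 to 2802 CPM.

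The 2 sets were then set against each other. The ALKBH5 effect minus the RBM33 effect was called for 5 members, all higher, where 2.69% of all tested genes were called (2.01% higher and 0.686% lower). Those were EIF4A1 as deposited, EIF4EBP1, EEF1B2, EEF1A1 and EEF1G. Directly, the ALKBH5 scramble was below the RBM33 scramble for 6 members and above it for none, where 2.48% of genes were called (0.269% higher and 2.21% lower): EIF4A1 as deposited, EEF1A1, EEF1B2, EEF1G, EIF3I and EIF5A. With the small-RNA reads subtracted, EIF4A1 was no longer called between the scrambles (-0.22, adjusted p = 0.13, from -1.02 as deposited). Under quantile normalization the other 5 were not called: EEF1A1 gave -0.15 (adjusted p = 0.372), EEF1B2 -0.25 (adjusted p = 0.131), EEF1G -0.24 (adjusted p = 0.0648), EIF3I -0.18 (adjusted p = 0.19) and EIF5A -0.10 (adjusted p = 0.548). The EIF5A call was lost without any of the 6 scramble libraries, the EIF3I call without any of 5 of them, and the EEF1B2 call without replicate 3 of either scramble. Between the ALKBH5 shRNA libraries and those labelled RBM33 shRNA only EIF4EBP1 was called (0.35, limma adjusted p = 0.0471; lost in 17 of 27 other settings, with adjusted p up to 0.208), where 0.302% of genes were called (0.0878% higher and 0.214% lower). Of 83 ribosomal protein genes, 61 were lower in the ALKBH5 scramble than in the RBM33 scramble and none differed between the shRNA libraries. The part of the scrambles in the opposite signs of EEF1G was not tested. By single shRNA, 8 members were higher and 3 lower with ALKBH5 shRNA-1 (5.05% and 3.48% of all tested genes, 8.53% in all), and 10 and 5 with ALKBH5 shRNA-2 (5.06% and 5%, 10.1% in all). The counts were 8 and 4 in the libraries labelled RBM33 shRNA-1 (5.62% and 5.27% of all tested genes, 10.9% in all) and 9 and 13 in those labelled RBM33 shRNA-2 (6.44% and 7.27%, 13.7% in all). Leaving out replicate 1 of ALKBH5 shRNA-1 took the first count from 11 to 0, and leaving out replicate 1 of ALKBH5 shRNA-2 took the second from 15 to 3; the lowest RBM33 counts were 5 (without RBM33 shRNA-1 replicate 1) and 11 (without RBM33 scramble replicate 1).

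The members were also counted by their start sequence. Of 13 tested members with the run, 2 were higher and none lower with the ALKBH5 shRNAs (median 0.052), and of 42 with an entry and no run 9 were higher and 3 lower (median 0.063). In the RBM33 set 1 was higher and 3 lower with the run (median -0.098), and 7 were higher and 8 lower without it (median -0.029). Of all tested genes 7.93% were called higher and 7.18% lower in the ALKBH5 set, and 8.5% and 9.25% in the RBM33 set. Of the 10 TOP members all had a positive difference with the ALKBH5 shRNAs, where 50.6% of all tested genes did, and 3 were called higher. With ALKBH5 shRNA-2 alone 8 were positive, and under quantile normalization of the pooled comparison 7 were (EEF2, EIF3A and EIF3E turned negative), with the length trend removed 9 (EIF3E turned). In the RBM33 set 6 were positive, where 48.5% of all tested genes were, and 1 was called higher and 2 lower.

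Genes that act beside these factors, 59 of 60 on the list tested, were 11 higher and 10 lower with the ALKBH5 shRNAs, where 7.93% and 7.18% of all tested genes were called, and 9 higher and 14 lower in the libraries labelled RBM33 shRNA, where 8.5% and 9.25% were. DDIT4, an inhibitor of mTOR, fell from 293.7 to 313.5 CPM to 157 to 174.3 with the ALKBH5 shRNAs (-0.84, limma adjusted p = 1.38e-08) and by 1.04 on the log2 scale in the RBM33 set (adjusted p = 7.78e-11). ASNS, asparagine synthetase and a target of ATF4 downstream of eIF2 phosphorylation, fell by 0.67 and 0.88 (adjusted p = 1.06e-06 and 6.25e-09). ATF4 itself was called higher with the ALKBH5 shRNAs (0.21), a call lost in 5 of 27 other settings. PPP1R15A, which directs phosphatase to eIF2, rose by 0.65 and 0.51 (adjusted p = 2.24e-05 and 0.000174). GIGYF1, a partner of EIF4E2, rose by 0.73 and 0.76 (adjusted p = 3.42e-06 and 5.76e-07), and RPTOR, the mTORC1 scaffold, by 0.57 and 0.77 (adjusted p = 0.000169 and 1.42e-06). TSC1, an inhibitor of mTOR, was also called higher in both sets (0.29 and 0.47). RPS6KB2, a kinase that mTOR activates, was called lower in both (-0.40 and -0.37). The TSC1 call in the ALKBH5 set was lost in 6 of 27 other settings. PABPC1, the poly(A)-binding partner of EIF4G1, fell by 0.32 and 0.29 (adjusted p = 0.00162 and 0.00245), and under quantile normalization the RBM33 value was -0.16 (adjusted p = 0.0629).

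In the m6A data, only the authors' own comparisons were analysed, so no value has a replicate spread. The authors' deposited tables list 289 peaks on 52 of the 71 members, each with an effect that has an absolute value of at least 0.5. Peaks named EIF3CL lie at chr16:28724737-28735432, inside the span of its near copy EIF3C (chr16:28688558-28735727). That locus is thus counted under both names in the numbers of peaks, members and regions here. A peak was listed on 43 of 70 members (61.4%) with ALKBH5 shRNA-1, where 41.9% of tested protein-coding genes had one, and on 45 (64.3%) with shRNA-2, where 48.9% did. For RBM33, 10 members (14.3%) had a peak for shRNA-1, against 10.2%, and 10 for shRNA-2, against 14.7%. A higher peak was listed on 38 members and a lower one on 21 with ALKBH5 shRNA-1 (29.7% and 21.3% of tested protein-coding genes), and on 37 and 20 with shRNA-2 (37.7% and 23.9%). For RBM33 shRNA-1 these were 9 and 1 members (8.94% and 1.39%), and for RBM33 shRNA-2 also 9 and 1 (12.7% and 2.35%). The RBM33 shares lie near those of all such genes. The members' higher median abundance, given above, also bears on how many peaks can be listed, and its part was not tested. Higher effects made up 75.6%, 82.2%, 91.7% and 91.7% of the member peaks, against 64.7%, 72.5%, 87.6% and 87.5% of all listed peaks.

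**Figure D4:**
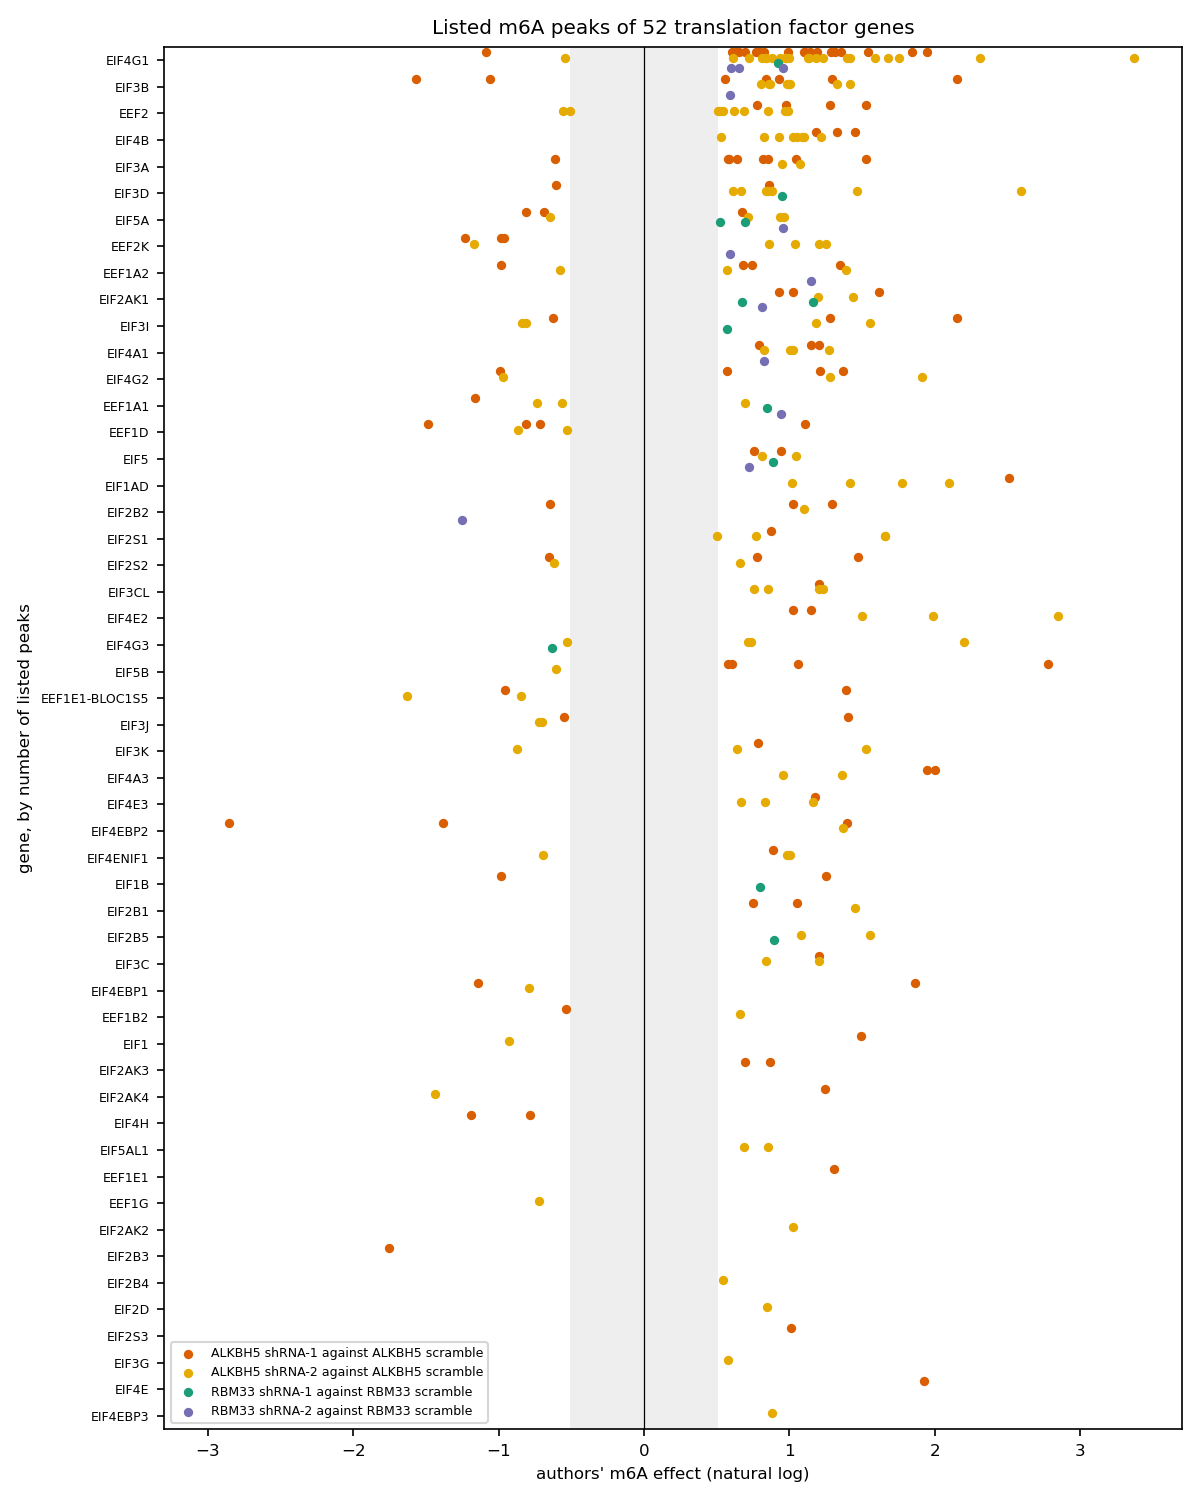
Effects of the authors' listed m6A peaks on 52 members, one row per gene ordered by number of peaks, coloured by comparison; the x axis is the authors' effect on a natural-log scale and the grey band marks the interval below an absolute effect of 0.5, in which nothing is listed. Most points lie to the right of zero, and EIF4G1 has the most.

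EIF4G1 carried the most listed peaks of any member: 20 with ALKBH5 shRNA-1, of which 19 were higher, 23 with ALKBH5 shRNA-2, of which 22 were higher, 1 for RBM33 shRNA-1 and 3 for RBM33 shRNA-2, all higher. One region of it, chr3:184328681-184331357, was listed in all 4 tables. Effects there ran from 0.65 to 1.68. EIF4B, which stimulates the helicase, had 11 peaks, all higher. EIF2AK1 and EIF4A1 had 8 each and EIF5 had 6, all of them higher. Directions were mixed for other members listed in several tables. EEF1A1 had 3 peaks higher and 3 lower, EIF5A 7 and 3, EIF3I 5 and 3, and EEF1A2 6 and 2. EEF2K's listed peaks were 3 lower with ALKBH5 shRNA-1, 4 higher and 1 lower with ALKBH5 shRNA-2, and 1 higher for RBM33 shRNA-2. The only EEF2K region listed for both ALKBH5 shRNAs, chr16:22286134-22286183, was lower in both (-0.96 and -1.17), and the shRNAs were not compared by a test. Another region, chr16:22258530-22258579, was higher with ALKBH5 shRNA-2 (1.25) and for RBM33 shRNA-2 (0.59). EIF4G1, EIF5A, EEF1A1, EIF2AK1 and EIF5 were the 5 members with a peak in all 4 tables. The 15 members with a peak in an RBM33 table all had one in an ALKBH5 table. Of 229 regions on members, 51 were listed in at least 2 tables, and 50 of these kept one direction (42 higher and 8 lower), the exception being on EIF3J. Both shRNAs of a target were compared with the same scramble, which can itself make their directions alike. These overlaps between tables were not counted for all genes, so they are not shown to be particular to the members. None of the 8 EIF4A1 peaks overlapped its 3 small RNAs.

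Methylated fractions, where the authors' deposited table gives them, went up from 0.132 to 0.717 for an EIF1B peak with ALKBH5 shRNA-1 (adjusted p = 0.000179 in the authors' deposited table). An EIF5A peak, chr17:7307620-7307669, went from 0.248 to 0.696 (adjusted p = 0.000425 in the authors' deposited table). By the authors' effects for that shRNA, EIF5A had 3 listed peaks, of which 2 were lower. Its region chr17:7312346-7312395 was lower with both ALKBH5 shRNAs (-0.69 and -0.65). The authors' deposited table has an EIF4G1 peak from 0.393 to 0.639 and an EIF4A1 peak from 0.085 to 0.252, while an EIF2AK4 peak went from 0.763 to 0.473. It lists 12 peaks on 11 members for that comparison, 10 of them higher, where 67.3% of all its 725 peaks were higher. Its adjusted p runs up to 0.0998, and 4 of the 12 (on EEF1G, EIF2S3, EIF4G2 and EIF5B) lay between 0.057 and 0.0927. The authors' deposited table has 1 member peak for ALKBH5 shRNA-2, on EIF3A, and none for either RBM33 comparison.

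The 4 listed peaks that lie in a promoter entry and hold the m6A motif are shown. Capitals mark the motif in which m6A is made (A, G or T, then A or G, then A, then C, then A, C or T), searched on the gene's strand only.
EIF4G1 (chr3:184314595-184314644, effect 1.95): ggaaatggttgtGGACTacgtctgtgcgg
EIF5A (chr17:7307620-7307669, effect 0.67): gcctgcgtactaAGACCcgtgtgcagcag
EIF5B (chr2:99337371-99337420, effect 2.78): cttgcgcactgaGAACTcacaccatatgt
EIF3I (chr1:32222370-32222419, effect 2.15): ataatccggaagTGACCtcgaaacctttt
The effects are those of the authors' deposited table for ALKBH5 shRNA-1. The EIF3I peak holds a second copy of the motif that is not shown. Both EIF3I copies and the EIF5B motif lie before the RefSeq start used here (chr1:32222407 and chr2:99337389). Of 180 member peaks of 1 block, 5 lay within a RefSeq promoter entry, and the one not shown, on EIF4A3, held no copy. The motif stands in the first 50 bases of 55.3% of all 27305 genes, so a match is a description and no sign of a site. That share does not count bases before the start.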

How the data were processed

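RNA-seq of total RNA and m6A-seq were made with a stranded kit from sonicated RNA, per the labels' protocols. Reads were trimmed with cutadapt 1.18, aligned to hg38 with HISAT2 2.1.0 and counted with featureCounts (Subread 1.6.4), with edgeR 3.24.3 and DESeq2 also named, per the submitters' processing notes. The gene values the authors deposited are named CPM, a normalized signal that behaves as counts divided by size factors: 100% of values in each library were whole multiples of 1 read within 0.1 read. Whole reads so recovered gave 4493849 to 6733017 reads per library, and 1 read was worth 0.143 to 0.220 CPM. The authors also deposited tables of log2 changes with p-values and FDR, m6A effects, and methylated fractions with adjusted p-values. The authors' deposited m6A effects, listed only from an absolute 0.5 up per the file headers and values, are on a natural log scale (4.67 to 7.41% are natural logs of multiples of 0.5, and 0% are log2 of them). No source used here names the peak caller.

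The 18227 of 21797 genes averaging 1 CPM or more were tested with limma 3.58.1 (R 4.3.3, limma-trend) on log2(CPM + 1), which understates the change of low genes, in one fit of 6 groups with 9 residual degrees of freedom. P-values were adjusted by Benjamini-Hochberg over all genes tested, and calls were made under 0.05. Target effects are the mean of both shRNA groups minus their scramble. On simulated data of 18227 genes, 28.4% of 1.3-fold changes were recovered in each set, 58.2% (ALKBH5) and 79.1% (RBM33) of 1.5-fold changes, and 93.9% and 100% of 2-fold changes. In each simulation 66 or 67 genes were changed by each fold, drawn from the more abundant genes, and all others were left unchanged. Far more genes were called in the data, so these rates need not hold there. Same-numbered replicates did not deviate together (12 pairs, correlations -0.076 to 0.074), so the numbers were not used as pairs. Alternatives were another pseudocount, no filter, quantile normalization, a gene length correction, a replicate block, only the groups compared, each library left out, edgeR 4.0.16 and DESeq2 1.42.0. On the whole reads edgeR's quasi-likelihood test called 2808 genes for ALKBH5 and 3245 for RBM33. Subtracting small-RNA reads and a stricter m6A p were chosen after the data were seen. Promoters were matched by symbol to RefSeq (56 of 71 members). The members, lists and rules for named genes (those called, up to 12 each way by size, a set of core factors, members with peaks in several tables, and up to 4 per list) were chosen with earlier results of these data known. EEF1D and EIF3I in the ALKBH5 set and EIF5 and EEF1G in the RBM33 set are named beyond that rule.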

Additional observations from a re-analysis of the deposited data

Results flagged for a closer look

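For 5 members the ALKBH5 effect minus the RBM33 effect, a test of the difference itself, passed an adjusted p of 0.05 (limma). The value was 0.81 on the log2 scale for EIF4A1 as deposited (adjusted p = 0.00396) and 0.16 (adjusted p = 0.463) after its 3 small RNAs were subtracted. EIF4EBP1 gave 0.65 (adjusted p = 0.00291), with 0.07 in the ALKBH5 set and -0.59 in the RBM33 set. Its mean was 227.4 CPM in ALKBH5 scramble and 279.5 CPM in RBM33 scramble. That scramble difference was not called, and its part in the 0.65 was not tested. EEF1B2 gave 0.53 (adjusted p = 0.0102), EEF1A1 0.50 (adjusted p = 0.00693) and EEF1G 0.45 (adjusted p = 0.00876). For the last 3 the ALKBH5 scramble was below the RBM33 scramble, by -0.42, -0.44 and -0.41, and the part of the scrambles in these differences was not tested. Under quantile normalization those scramble differences were -0.25, -0.15 and -0.24 (adjusted p = 0.131, 0.372 and 0.0648), none of them called. Under quantile normalization EEF1A1 gave 0.21 (adjusted p = 0.306) and EEF1G 0.31 (adjusted p = 0.0511), and with the gene length trend removed EEF1G gave 0.34 (adjusted p = 0.0542).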

How the results depend on the processing

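Of 3316 recomputed gene values over 27 settings, 3100 kept direction and side of the threshold, 178 lost it, 20 gained it and 18 turned sign, 16 of these not called at first. On whole reads edgeR called 19 members for ALKBH5 and 25 for RBM33, and DESeq2 20 and 25. The count between the shRNA libraries of both sets, 1, was 0 with a pseudocount of 0.5 CPM, the length trend removed, the replicate block, only the groups compared or edgeR, and 3 with DESeq2. The count between scrambles, 6, was 3 with quantile normalization, and the effect difference, 5, was 10 with DESeq2. Of those 6, only EIF4A1 as deposited kept its call with quantile normalization, so the 3 include members not called at first. ALKBH5 shRNA-1 went from 11 to 7 under the replicate block and ALKBH5 shRNA-2 from 15 to 8 with only the groups compared. The block moved no other count of members by over 1.5 times. It also ended the calls of EIF3I (adjusted p = 0.0549) and EIF5A (adjusted p = 0.0612) between scrambles and, in the RBM33 set, of EIF4A2 (adjusted p = 0.0605), EIF5 (adjusted p = 0.0747), EEF1G (adjusted p = 0.0677) and RACK1 (adjusted p = 0.0527).

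With each library left out in turn the counts ran from 13 to 18 for the ALKBH5 shRNAs, 14 to 26 for RBM33, 5 to 8 for the effect difference, 3 to 7 between scrambles and 0 to 1 between shRNA libraries. For single shRNAs they ran from 0 to 12 (ALKBH5 shRNA-1, lowest without its replicate 1), 3 to 17 (ALKBH5 shRNA-2, lowest without its replicate 1), 5 to 13 (RBM33 shRNA-1, lowest without its replicate 1) and 11 to 22 (RBM33 shRNA-2, lowest without RBM33 scramble replicate 1). Where an arm had 1 library it was taken to vary like the other groups.

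Signs turned under quantile normalization for EEF2 (-0.18 in the ALKBH5 set, 0.066 in the RBM33 set) and RACK1 (0.032 in the RBM33 set), and with the length trend removed for EIF4EBP1 (-0.014, ALKBH5) and EIF2B1 (0.023, RBM33). With each library left out, values on both sides of 0 were found in the ALKBH5 set for EIF2AK4 (-0.16 to 0.0024), EIF2B1 (-0.14 to 0.085) and EIF4EBP1 (-0.014 to 0.16), and in the RBM33 set for EIF2AK4 (-0.074 to 0.005), EIF2B1 (-0.078 to 0.041), EIF2B2 (-0.068 to 0.0082) and EIF2B4 (-0.020 to 0.084). EIF4A1 in the RBM33 set turned to 0.54 once small-RNA reads were subtracted; that subtraction is the cause by construction, and other causes were not tested. Members with a listed m6A peak numbered 52 at the authors' threshold and at p under 0.01, 43 at p under 0.001 and 53 by overlap of peak spans. The authors' highest listed p was 0.00826, so the cut at 0.01 removed no peak and could not change the 52. For RBM33 shRNA-1 it was 0.000681, so there the cut at 0.001 removed none either.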
